A study of Mus musculus with 25 samples.

Results

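Fatty acid oxidation genes and targets of PPAR alpha were followed in mouse liver as a set of 35 genes, matched by symbol among the 56980 genes of the deposited count table. The set was listed by function, with earlier results of these data known, and holds 18 genes of mitochondrial oxidation, its carnitine shuttle, ketone body metabolism and fuel choice, 10 genes of peroxisomal or microsomal oxidation, and 7 cytosolic, membrane or regulatory genes. All 35 were found under 1 gene identifier each and all passed the filter on low counts in every fit. The series holds poly-A RNA-seq of livers from C57BL/6J males, aged 8 weeks when feeding began and 20 weeks when it ended. Batch 1 comprises 18 libraries, 3 in each of 6 groups: normal chow, the FAT-MASH regimen, and FAT-MASH with mannose at 5% or 20% in the drinking water, given for all 12 weeks (prevention) or for the final 6 weeks (therapy). Batch 2 adds 7 normal-chow libraries: 2 without mannose, 2 with 5% and 3 with 20%, the mannose being given for 12 weeks. FAT-MASH is a model of metabolic dysfunction-associated steatohepatitis in which chow with much fat, cholesterol and sucrose is joined to fructose and glucose in the water and a weekly injection of the liver toxin carbon tetrachloride. Every FAT-MASH group received the diet, the sugar water and the toxin together, so their effects cannot be told apart here.

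Fatty acids enter mitochondria as carnitine esters and are shortened there by repeated cycles of dehydrogenation, hydration, a second dehydrogenation and thiolysis, and the liver turns much of the product into ketone bodies. Peroxisomes shorten very long and dicarboxylic fatty acids, and microsomal enzymes of the Cyp4a family make the dicarboxylic substrates by omega oxidation. PPAR alpha is a nuclear receptor activated by fatty acids that binds DNA with RXR and, in liver, drives genes of all these steps, above all during fasting.

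PPAR alpha with RXR binds direct repeats of AGGTCA spaced by 1 base, so the promoters of the set were searched on both strands for AGGTCA, any 1 base and AGGTCA again, in the window from 250 bases before to 50 bases after the start. RefSeq promoters (GRCm38.p6) were matched for 28 of the 35 genes, as 32 promoters. Cyp4a10 and Cyp4a14 were among the genes without one, so they were not searched. A match with up to 2 of the 12 defined letters differing was present in 1268 of 32851 promoters of that length (3.86%). In the set it was present in 4 of the 32 promoters, from 4 of the 28 genes: Slc25a20, Acot4, Fabp1 and Creb3l3. The shorter AGGTCA, which any longer match may contain, was present in 16.3% of all promoters and in 8 of the 32. Fabp1, Acot4 and Creb3l3 are shown because their match lies before the start, with the match in capitals. Creb3l3 has another promoter window (chr10:81098823-81099122) in which no match was found. The 80 bases before the starts of Acot2 and Acot1 are shown beside them because these thioesterase genes rose in both 20% mannose groups while no such match was found in their windows. A match is a description of the letters and not evidence of a bound site.
Fabp1, chr6:71199782-71199854, plus strand, 1 letter differing: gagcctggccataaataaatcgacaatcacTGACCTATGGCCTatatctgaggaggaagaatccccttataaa
Acot4, chr12:84038336-84038378, plus strand, 2 letters differing: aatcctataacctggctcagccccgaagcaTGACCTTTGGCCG
Creb3l3, chr10:81092758-81092830, minus strand, 2 letters differing: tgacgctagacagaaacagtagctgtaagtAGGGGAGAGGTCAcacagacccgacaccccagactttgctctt
Acot2, chr12:83987781-83987860, plus strand, no match: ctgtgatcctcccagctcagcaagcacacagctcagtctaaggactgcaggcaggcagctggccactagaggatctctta
Acot1, chr12:84009422-84009501, plus strand, no match: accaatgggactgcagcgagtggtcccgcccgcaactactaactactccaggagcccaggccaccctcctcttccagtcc

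Library totals ran from 31298299 to 56010646 counts, and the lowest count of any of the 35 genes in any library was 28 (Acot3), so most members were measured far above counting noise. Levels are given in CPM, the usual depth-scaled count, with TMM factors within a batch, and differences as log2 fold changes ± SE; "rose" and "fell" mark an adjusted p under 0.05 (edgeR, quasi-likelihood, adjusted by Benjamini and Hochberg's method over all genes tested). The liver label held: the 7 measured hepatocyte markers summed to 60255 to 108294 CPM in the 25 libraries, while dividing-cell, cholangiocyte, macrophage and stellate markers summed to at most 1031 CPM each. The labels call the samples of a group biological replicates but do not give each mouse's cage, so p-values measure only the spread between these samples. In bulk liver, fewer cells of a type and less RNA per cell cannot be told apart. Scaled per kilobase of exon, mean levels on normal chow ran from 0.674 CPM per kilobase for Acot3 to 5507 for Fabp1, the cytosolic carrier of fatty acids. The thiolases Acaa1b (904) and Acaa2 (739.8) came next. Of stretches of 100 bases in the transcripts, 26% in Acaa1b recur in another gene, mostly Acaa1a, and 12.2% in Cyp4a10, mostly Cyp4a32. For Hadhb the share was 14.8%, and 42.9% of Acadvl exon bases lie under exons of Dvl2. The exact levels of these genes are therefore uncertain.

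**Figure D1:**
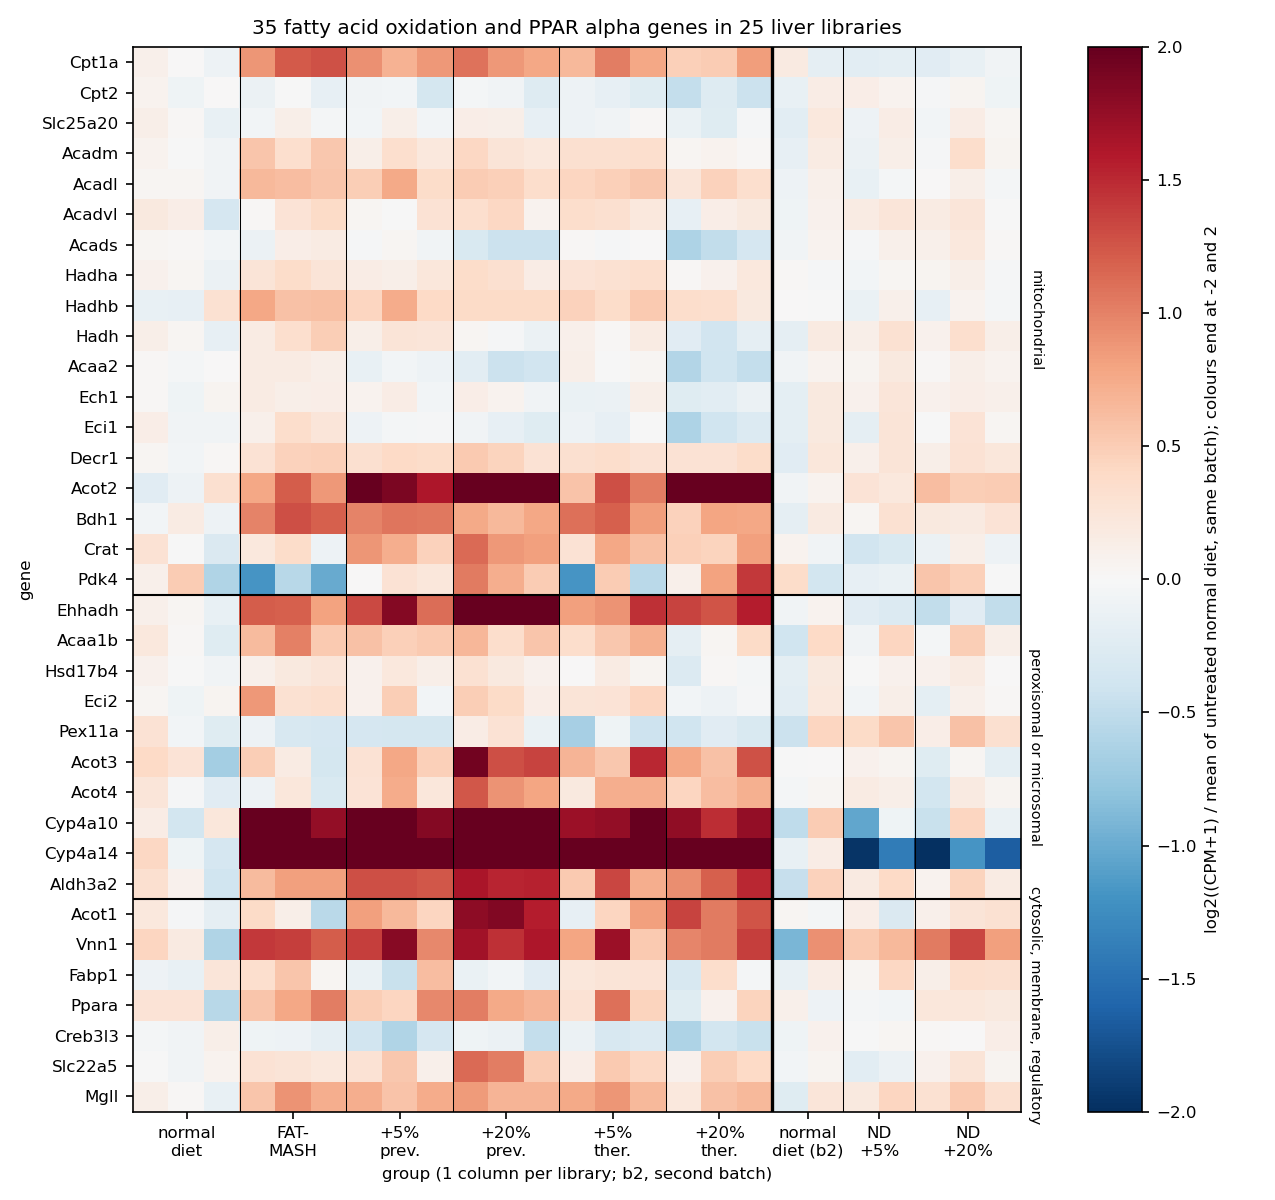
Heat map of the 35 genes (rows, ordered mitochondrial, peroxisomal or microsomal, then cytosolic, membrane and regulatory) in all 25 libraries (columns); colour is the log2 ratio of CPM + 1 to the mean of the normal-chow libraries without mannose of the same batch, with colours ending at -2 and 2. Cyp4a10, Cyp4a14, Ehhadh and Acot2 are the strongest rows in the FAT-MASH groups. With mannose on normal chow, where no member passed, Cyp4a14 is the row that is lowest, and Ehhadh is lower too.

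On the regimen alone, many of the chosen genes rose. Of the 35 genes, 18 were higher in FAT-MASH than on normal chow and 0 were lower, against 7.81% of the 19571 genes tested that were higher and 5.92% that were lower (13.7% in either direction). Scaled by library totals alone, all genes split 1877 higher and 880 lower in place of 1528 and 1159, and the members 19 and 0. The median log2 fold change was 0.32 over the 35 genes and 0.03 over all genes tested. At an unadjusted p under 0.05, 1 of the 35 was lower, and DESeq2 called 0 lower. By arm, 9 of 18 mitochondrial genes rose (median 0.26), 6 of 10 peroxisomal or microsomal genes (0.63) and 3 of 7 of the others (0.32). Outside the set, 2 of 14 other mitochondrial oxidation genes rose and 1 fell (median -0.01). Of 17 other peroxisomal oxidation genes, 5 rose and 0 fell (median 0.08).

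Within the mitochondrial arm, the entry step and the ketone body step moved most. Cpt1a, which makes the carnitine esters at the outer membrane and sets the rate of entry, was at 264, 247 and 228 CPM in the 3 normal-chow libraries and at 456, 574 and 595 CPM in the 3 FAT-MASH libraries. The lowest FAT-MASH library was above the highest normal-chow library, and the rise was 1.14 ± 0.13 (adjusted p = 9.91e-06, 2.20-fold in mean CPM). Bdh1, the enzyme that interconverts the ketone bodies acetoacetate and beta-hydroxybutyrate, went from 207, 242 and 201 CPM to 432, 531 and 494 CPM, without overlap (1.16 ± 0.12, adjusted p = 1.84e-06). Acot2, a thioesterase that frees fatty acids from CoA in the mitochondrial matrix, was at 5.97, 6.58 and 9.16 CPM on normal chow and at 12.96, 17.9 and 13.8 CPM on the regimen (1.04 ± 0.21, adjusted p = 0.00212).

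The spiral itself rose by less. The medium-chain acyl-CoA dehydrogenase gene Acadm went from 397, 375 and 361 CPM to 556, 477 and 547 CPM, again without overlap (0.48 ± 0.09, adjusted p = 0.00143). Its long-chain counterpart Acadl (0.61 ± 0.10), the trifunctional protein subunits Hadhb (0.65 ± 0.12) and Hadha (0.29 ± 0.09), Hadh, the short-chain hydroxyacyl-CoA dehydrogenase (0.33 ± 0.10), and Decr1, the reductase needed for unsaturated chains (0.41 ± 0.09), completed the 9. The carnitine shuttle genes downstream of Cpt1a, Cpt2 (-0.10 ± 0.10) and Slc25a20 (-0.00 ± 0.10), did not pass. Neither did Acadvl, Acads, Acaa2, Ech1, Eci1 and Crat, which lay between 0.06 and 0.23. Pdk4, the kinase that shuts pyruvate out of the mitochondrial fuel supply, was at 41.0, 54.7 and 24.9 CPM on normal chow and 16.4, 25.7 and 18.5 CPM on the regimen. It was the 1 member lower at an unadjusted p under 0.05, the groups overlapped, and it did not pass (-0.998 ± 0.363, adjusted p = 0.076).

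The largest rises of the set were microsomal. Cyp4a14, an omega hydroxylase of fatty acids, was at 67.0, 47.0 and 39.3 CPM on normal chow and at 716, 307 and 285 CPM in FAT-MASH. All 3 FAT-MASH libraries were above all 3 normal-chow libraries, with replicate 1 well above the other FAT-MASH values, and the rise was 3.09 ± 0.39 (adjusted p = 2.68e-05, 8.53-fold). Its neighbour Cyp4a10, of the same family, rose from 89.1, 62.2 and 94.2 CPM to 474, 386 and 274 CPM (2.21 ± 0.24, adjusted p = 4.31e-06). Ehhadh, the peroxisomal bifunctional enzyme, rose from 373, 359 and 315 CPM to 806, 797 and 607 CPM without overlap (1.08 ± 0.19, adjusted p = 0.000782). Acaa1b, a peroxisomal thiolase (0.73 ± 0.16), Aldh3a2, the fatty aldehyde dehydrogenase (0.73 ± 0.19), and Eci2, an enoyl-CoA isomerase (0.53 ± 0.15), also rose. Hsd17b4, Pex11a, Acot3 and Acot4 did not pass.

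Of the cytosolic, membrane and regulatory genes, Vnn1, a membrane pantetheinase, rose from 52.0, 43.8 and 24.9 CPM to 104, 102 and 90.5 CPM (1.30 ± 0.27, adjusted p = 0.0032). Mgll, the monoacylglycerol lipase, rose by 0.74 ± 0.12. Ppara itself was at 55.2, 55.4 and 30.6 CPM on normal chow and 67.5, 78.3 and 93.8 CPM in FAT-MASH, without overlap (0.76 ± 0.24, adjusted p = 0.0377). Fabp1 (0.32 ± 0.21, adjusted p = 0.364), Acot1 (0.03 ± 0.22, adjusted p = 0.951) and Creb3l3, a hepatic transcription factor of fasting (-0.12 ± 0.11, adjusted p = 0.554), did not pass.

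These rises differed in how firmly they were held. In edgeR's test, Hadha lost its call without any 1 of the 6 libraries (adjusted p up to 0.207), Hadh without normal-chow replicate 2 or 3 or FAT-MASH replicate 2 or 3 (up to 0.216), Eci2 without any normal-chow library or FAT-MASH replicate 1 (up to 0.155), Aldh3a2 without normal-chow replicate 3 (0.0811), and Ppara without normal-chow replicate 3 or FAT-MASH replicate 2 or 3 (up to 0.186). Without normal-chow replicate 3, Pdk4 passed as lower (-1.26, adjusted p = 0.0406). The other 13 rises passed without each library. The regimen also moved other cell types: 7 of 10 macrophage markers rose, and their sum was 241 to 276 CPM on normal chow and 469 to 830 CPM in FAT-MASH, 6 of 8 stellate cell markers rose (253 to 296 against 454 to 604 CPM), as did 2 of 3 tested neutrophil markers, and 2 of 7 measured hepatocyte markers fell (93575 to 107203 against 85412 to 96201 CPM). The part of these cells in the members' values was not tested.

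**Figure D2:**
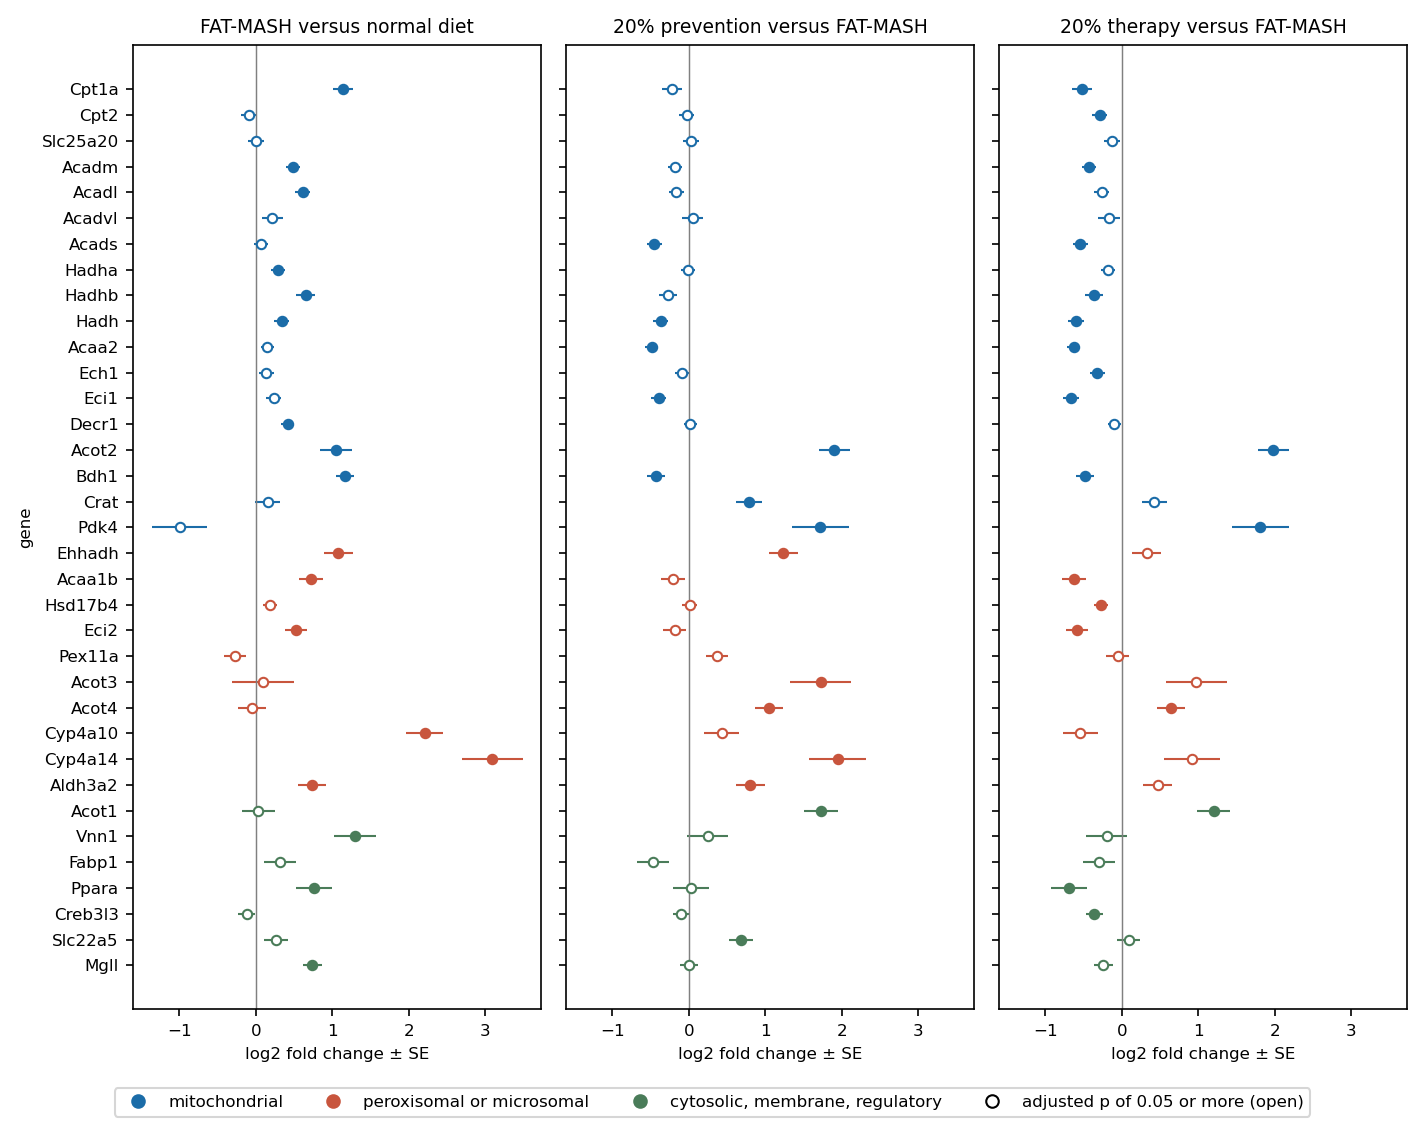
Log2 fold change ± SE of each of the 35 genes (vertical axis) for FAT-MASH against normal chow, 20% prevention against FAT-MASH and 20% therapy against FAT-MASH (horizontal axes, same scale); filled points passed an adjusted p of 0.05, open points did not, and colours give the arm. The regimen gave 18 rises, 20% prevention 10 rises and 5 falls, and 20% therapy 4 rises and 15 falls.

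Adding 20% mannose for 12 weeks to the regimen split the set. Against FAT-MASH, 10 of the 35 genes rose and 5 fell, where 6.83% and 8.26% of all genes tested did so (15.1% in either direction). The median log2 fold change was 0.01, as over all genes. All 5 falls were mitochondrial (3 higher and 5 lower of 18, median -0.13), while the peroxisomal or microsomal arm had 5 higher and 0 lower of 10 (median 0.62) and the others 2 higher of 7 (median 0.03). No peroxisomal or microsomal member was lower at an unadjusted p under 0.05 or by DESeq2. This contrast of the arms holds for the chosen members only. Outside the set, 0 of 17 other peroxisomal oxidation genes rose and 8 fell (median -0.30). Of 14 other mitochondrial oxidation genes, 0 rose and 8 fell (median -0.38).

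The 4 thioesterase genes that lie side by side on chromosome 12 (GRCm39, plus strand, Acot2 from 84034635, Acot1 from 84056264, Acot4 from 84085153 and Acot3 from 84098918 to 84107176) rose together, although their products work in different compartments. Acot2 reached 50.6, 67.7 and 48.0 CPM against 12.96, 17.9 and 13.8 CPM in FAT-MASH, a rise of 1.90 ± 0.20 (adjusted p = 1.15e-05, 3.73-fold). Acot1, the cytosolic form, reached 150, 158 and 128 CPM against 56.1, 46.5 and 29.2 CPM (1.72 ± 0.22, adjusted p = 4.99e-05). Neither gene's groups overlapped, and the 20% libraries were also above every normal-chow library. The peroxisomal forms Acot4 (69.6 to 95.8 against 31.9 to 47.1 CPM; 1.05 ± 0.18) and Acot3 (6.70 to 11.0 against 1.46 to 3.43 CPM; 1.72 ± 0.40) did the same. Of all stretches of 100 bases in their transcripts, 17.1% in Acot2, 12.4% in Acot1, 15.9% in Acot3 and 8.24% in Acot4 recur in another gene, and 20.6% of Acot3 and 9.71% of Acot4 exon bases lie under exons of another gene, so reads could be lost or shared among them and their exact levels are uncertain.

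Ehhadh, Cyp4a14, Aldh3a2, Crat, Slc22a5 and Pdk4 were the other rises. Ehhadh reached 1823, 1976 and 1402 CPM against 806, 797 and 607 CPM in FAT-MASH (1.23 ± 0.19, adjusted p = 0.000259), on top of its rise on the regimen. Cyp4a14 reached 1902, 1714 and 1420 CPM against 716, 307 and 285 CPM (1.94 ± 0.37, adjusted p = 0.00144). Both sets of libraries were apart. Cyp4a10 was at 475 to 551 against 274 to 474 CPM, nearly touching, and did not pass (0.43 ± 0.23, adjusted p = 0.238). Aldh3a2 rose by 0.80 ± 0.19 and Crat, the carnitine acetyltransferase that buffers acetyl-CoA, by 0.79 ± 0.17. Slc22a5, the carnitine transporter of the plasma membrane, rose by 0.68 ± 0.16 with libraries at 36.2 to 56.6 against 29.2 to 31.0 CPM; 12.9% of its stretches of 100 bases recur in another gene, mostly Slc22a21.

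Pdk4 rose too, although its lower values on the regimen had not passed. The 20% prevention libraries were at 80.1, 64.3 and 54.9 CPM and FAT-MASH at 16.4, 25.7 and 18.5 CPM, a rise of 1.72 ± 0.37 (adjusted p = 0.00316) without overlap. The lowest 20% prevention library, at 54.9 CPM, lay only just above the highest normal-chow library (54.7 CPM). All 10 rises passed under every alternative setting tried and without each single library of the 2 groups.

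The 5 falls were Acaa2, Acads, Hadh, Eci1 and Bdh1. Acaa2, the mitochondrial thiolase, was at 965, 835 and 857 CPM against 1254, 1254 and 1216 CPM in FAT-MASH (-0.49 ± 0.09, adjusted p = 0.000831), so every 20% library was also below every normal-chow library (1095 to 1136 CPM). Acads, the short-chain dehydrogenase, was at 185, 170 and 170 CPM against 210, 252 and 255 CPM (-0.45 ± 0.09, adjusted p = 0.00268), likewise below the normal-chow range of 220 to 236 CPM. Hadh (-0.37 ± 0.10, adjusted p = 0.0181) and Eci1, an enoyl-CoA isomerase (-0.39 ± 0.10, adjusted p = 0.0103), fell by similar amounts. Bdh1 was at 367, 341 and 371 CPM against 432, 531 and 494 CPM (-0.43 ± 0.12, adjusted p = 0.0156), which left it above all normal-chow libraries. Cpt1a (-0.22 ± 0.13, adjusted p = 0.293), Acadm (-0.18 ± 0.09, adjusted p = 0.209) and both trifunctional protein subunits did not pass, and neither did Ppara (0.03 ± 0.23, adjusted p = 0.961), Fabp1 (-0.47 ± 0.21, adjusted p = 0.152), Vnn1 (0.24 ± 0.27, adjusted p = 0.611) or Creb3l3 (-0.10 ± 0.11, adjusted p = 0.626).

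Acaa2 and Acads kept their falls under every setting and without each library. With library totals as the only scaling, which moved the median over all genes from 0.01 to 0.20, the members split 11 higher and 2 lower and all genes 3066 higher and 949 lower instead of 1336 and 1616. Hadh, Eci1 and Bdh1 lost their calls there (adjusted p from 0.112 to 0.201). With 1 library left out in edgeR's test, Hadh also lost its call when this was replicate 2 or 3 of either group (adjusted p up to 0.104), Eci1 when it was FAT-MASH replicate 2 or the third 20% prevention library (up to 0.0666), and Bdh1 when it was replicate 2 of either group (up to 0.0892). The count of falls was 2 when FAT-MASH replicate 2 was left out, and 3 when replicate 2 or 3 of 20% prevention was. Beside these changes, 3 of 7 hepatocyte markers fell, their sum being 73096 to 90558 CPM against 85412 to 96201 CPM in FAT-MASH. All 6 dividing-cell markers rose (66.7 to 80.2 against 4.39 to 9.33 CPM) and 4 of 6 cholangiocyte markers rose (206 to 531 against 98.1 to 119 CPM), and their part in the members' values was not tested.

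**Figure D3:**
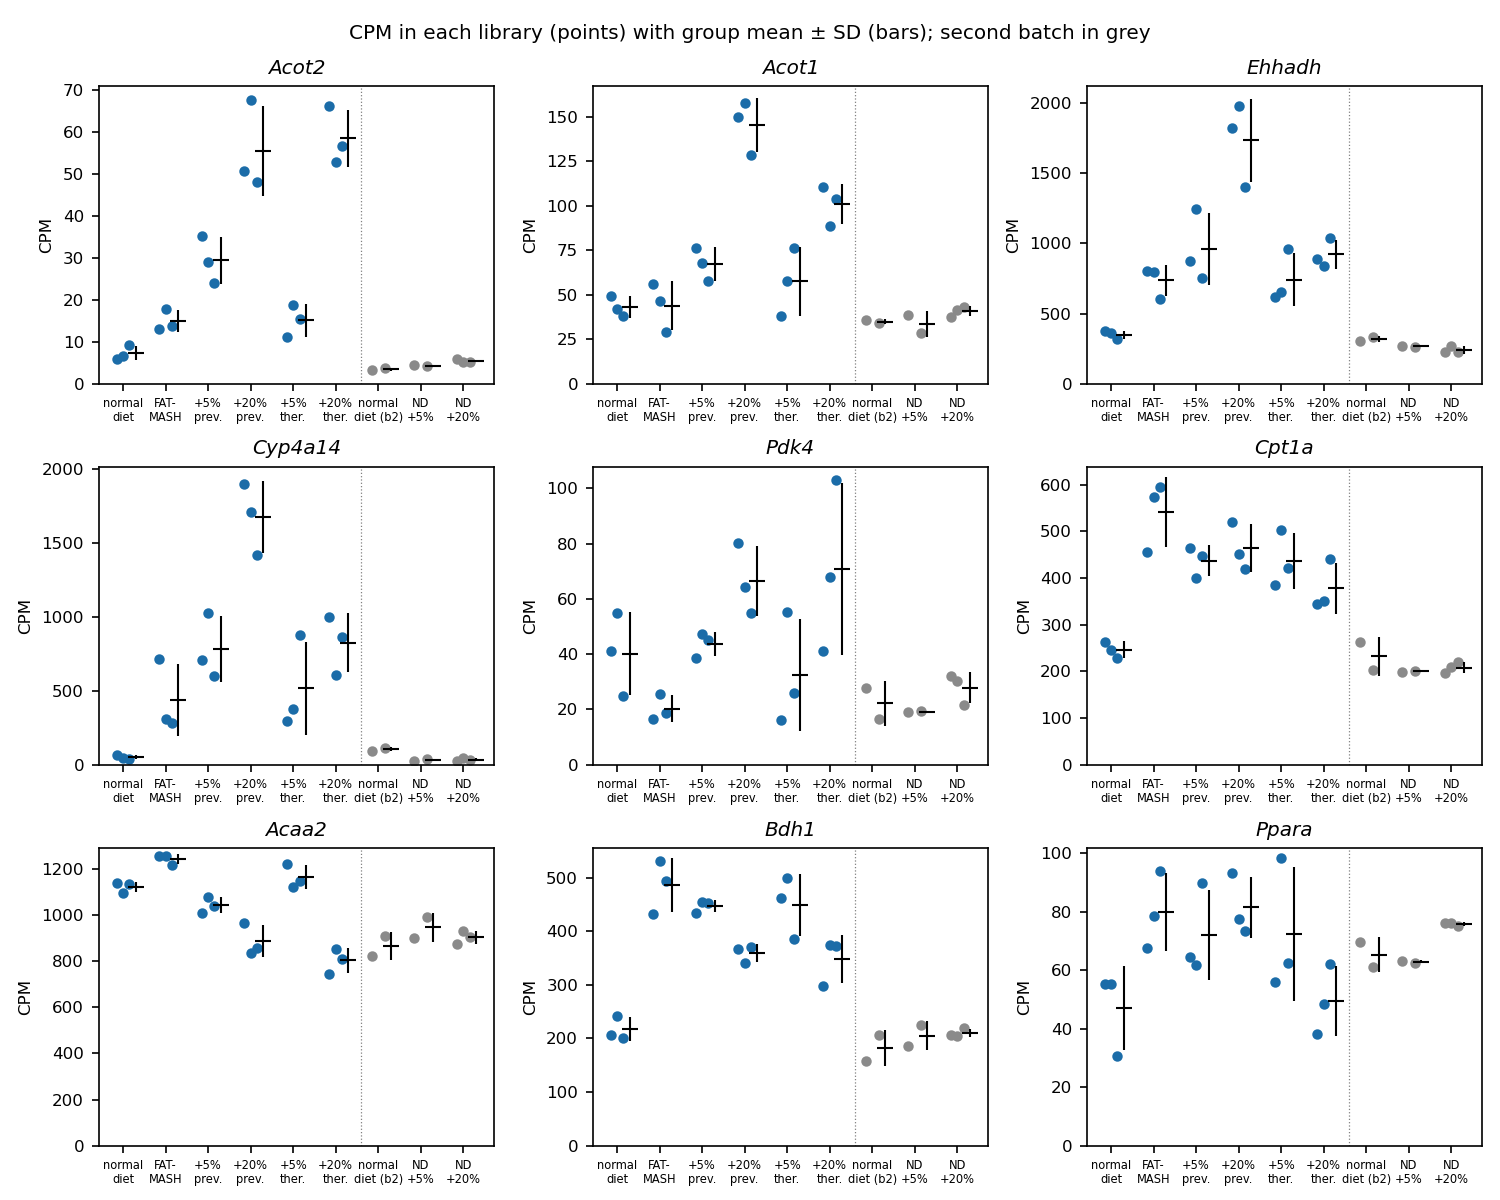
CPM of 9 members (vertical axes, from 0) in every library (points) with the group mean ± SD (black bars) in the 9 sets of libraries; prev. and ther. are mannose given for 12 or the last 6 weeks on FAT-MASH, and grey points are the second batch on normal chow (ND). Acot2 and Acot1 are highest in both 20% groups, Ehhadh and Cyp4a14 in 20% prevention, and Acaa2 is lowest in 20% therapy and 20% prevention within the first batch.

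With 20% mannose over the last 6 weeks only, the balance tipped toward falls. Against FAT-MASH, 4 of the 35 genes rose and 15 fell, where 10.2% and 11.3% of all genes tested did so (21.4% in either direction), and the median log2 fold change was -0.26 against 0.00 over all genes. The mitochondrial arm had 2 higher and 10 lower (median -0.31), the peroxisomal or microsomal arm 1 higher and 3 lower (median 0.13), and the others 1 higher and 2 lower (median -0.24). Outside the set, 0 of 17 other peroxisomal oxidation genes rose and 15 fell (median -0.59).

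The rises were again thioesterases and Pdk4, and their count was near the share of all genes that rose. Acot2 was at 66.1, 52.8 and 56.6 CPM (1.98 ± 0.20, adjusted p = 1.31e-06, 3.93-fold over FAT-MASH). Acot1 was at 110, 88.6 and 104 CPM (1.20 ± 0.22, adjusted p = 0.000495). Pdk4 was at 41.3, 67.9 and 103 CPM, a wide spread that still lay wholly above FAT-MASH (1.81 ± 0.37, adjusted p = 0.00127). Acot4 rose by 0.64 ± 0.18 (adjusted p = 0.0153) and lost that call in edgeR's test without FAT-MASH replicate 1 or 3 or 20% therapy replicate 3 (adjusted p up to 0.0789). Ehhadh, at 888, 838 and 1037 CPM, lay above FAT-MASH in each library but did not pass (0.32 ± 0.19, adjusted p = 0.254). Cyp4a14 (608 to 1000 CPM; 0.92 ± 0.36, adjusted p = 0.0807) and Cyp4a10 (226 to 277 CPM; -0.55 ± 0.23, adjusted p = 0.103) did not pass either. Both turned on single FAT-MASH libraries: without replicate 1, at 716 CPM, Cyp4a14 rose (1.48, adjusted p = 0.00782), and without replicate 3 Cyp4a10 fell (-0.73, adjusted p = 0.04). Aldh3a2 rose without 20% therapy replicate 1 (0.60, adjusted p = 0.0475), and DESeq2 called Acot3 (adjusted p = 0.0456) and Aldh3a2 (0.0479) higher. Scaling by library totals added Ehhadh, Cyp4a14, Acot3, Aldh3a2, Crat and Slc22a5 to the rises.

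The falls reached from entry to thiolysis. Cpt1a was at 344, 350 and 441 CPM against 456, 574 and 595 CPM in FAT-MASH (-0.52 ± 0.13, adjusted p = 0.00746), below the regimen and above normal chow without overlap with either. Acaa2 was at 746, 851 and 809 CPM (-0.63 ± 0.09, adjusted p = 3.31e-05). Eci1 was at 104, 121 and 132 CPM against 173, 204 and 191 CPM (-0.67 ± 0.10, adjusted p = 7.46e-05). For both of these the 20% therapy libraries were below all FAT-MASH and all normal-chow libraries. Hadh (-0.60 ± 0.10, adjusted p = 0.000283) and Acads (-0.54 ± 0.09, adjusted p = 0.000318) showed the same order, and Acadm (-0.43 ± 0.09, adjusted p = 0.00166) was back at 384 to 395 CPM, inside the normal-chow range. Bdh1 fell by 0.48 ± 0.12 on the log2 scale (adjusted p = 0.00555), and Hadhb and Ech1 fell by 0.36 ± 0.12 and 0.32 ± 0.09. Cpt2 fell by 0.29 ± 0.10, a direction that turned with library totals as scaling (0.0084).

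In the peroxisomal arm, Acaa1b (-0.63 ± 0.16), Eci2 (-0.58 ± 0.15) and Hsd17b4, the bifunctional enzyme for branched substrates (-0.27 ± 0.10, adjusted p = 0.0497), fell; with library totals as scaling the direction of Hsd17b4 turned (0.025). Among regulators, Ppara was at 38.3, 48.3 and 62.1 CPM against 67.5, 78.3 and 93.8 CPM in FAT-MASH (-0.69 ± 0.24, adjusted p = 0.0435), back inside the normal-chow range of 30.6 to 55.4 CPM in 2 of 3 libraries. Creb3l3 was at 221, 264 and 249 CPM against 323, 318 and 302 CPM (-0.36 ± 0.11, adjusted p = 0.0267). Fabp1 (-0.30 ± 0.21, adjusted p = 0.345) and Vnn1 (-0.20 ± 0.27, adjusted p = 0.659) did not pass.

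The number of falls depended on scaling. With library totals as the only scaling, the median over all genes moved from 0.00 to 0.30, the members split 10 higher and 3 lower, and all genes 5407 higher and 1113 lower in place of 1989 and 2206. Hadh, Acaa2 and Eci1 were the 3 that still fell, and Acot2, Acot1 and Pdk4 rose under every setting and without each library. Without FAT-MASH replicate 1 or 20% therapy replicate 1 the count of falls was 9, and without FAT-MASH replicate 2 it was 8. The single falls that edgeR did not keep were Hadhb without any 1 library (adjusted p up to 0.154), Cpt2 and Hsd17b4 without any but 20% therapy replicate 2 (up to 0.185 and 0.245), Ech1 without any but 20% therapy replicate 3 (up to 0.0775), Ppara without FAT-MASH replicate 2 or 3 or 20% therapy replicate 1 or 2 (up to 0.191), Creb3l3 without FAT-MASH replicate 1 or 2 or 20% therapy replicate 1 or 3 (up to 0.133), Acaa1b without FAT-MASH replicate 2 (0.0582) and Eci2 without FAT-MASH replicate 1 (0.0685).

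Markers of hepatocytes moved with these falls: 6 of the 7 measured fell (3 of 7 with library totals as scaling), with log2 fold changes from -1.38 for Serpina1c to -0.47 for Alb and Hnf4a, and their sum was 60255 to 68111 CPM against 85412 to 96201 CPM in FAT-MASH. All 6 dividing-cell markers rose (97.3 to 305 CPM against 4.39 to 9.33), as did 5 of 6 cholangiocyte markers (166 to 752 CPM against 98.1 to 119), 2 of 8 stellate cell markers (5 of 8 with library totals as scaling; 501 to 1031 CPM against 454 to 604) and 2 of 3 tested neutrophil markers. The sum of the 4 neutrophil markers was 14.6 to 22.9 CPM against 8.39 to 10.4. Their part in the members' falls was not tested. Acot2, Acot1 and Pdk4 rose in the same libraries.

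At 5% mannose few members moved. With 5% prevention 1 of 35 rose and 0 fell, against 0.966% and 1.31% of all genes (2.27% in either direction). Under scaling by library totals alone, all genes split 393 higher and 154 lower in place of 189 and 256, and 2 members rose. The gene was Acot2, at 35.1, 29.0 and 24.0 CPM, above all 3 FAT-MASH libraries (0.98 ± 0.20, adjusted p = 0.013). It lost the call in edgeR's test when FAT-MASH replicate 1 or 3, or replicate 1 of 5% prevention, was left out (adjusted p up to 0.0895, with 0 members then higher). Counts at an unadjusted p under 0.05 were 7 higher and 6 lower, and the share of all genes at that threshold was not counted. DESeq2 called 2 members higher and 1 lower, and 436 and 507 of all genes. Pdk4 (38.6 to 47.2 CPM; 1.11 ± 0.36, adjusted p = 0.121), Crat (0.54 ± 0.17, adjusted p = 0.0965) and Acot1 (0.61 ± 0.22, adjusted p = 0.156) had libraries wholly above FAT-MASH but did not pass. In all, 5 members lay wholly above and 5 wholly below, against 9.99% and 10.2% of all genes tested. Of the markers, 5 of 6 for dividing cells rose with 5% prevention (21.1 to 35.6 against 4.39 to 9.33 CPM) and 1 of 6 for cholangiocytes, and 1 of 7 for hepatocytes fell; their part was not tested. With 5% therapy 0 of 35 passed in either direction, where 0.0255% of all genes were higher and 0.0102% lower (0.0358% in all), and DESeq2 also called 0. All 3 libraries lay above FAT-MASH for 1 member and below it for 3, against 5.34% and 5.84% of all genes tested. At an unadjusted p under 0.05, 3 were higher (Acot4, Acot3 and Crat) and 3 were lower (Eci1, Cpt1a and Hadh). The share of all genes was not counted here either.

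Dose was compared within each schedule. Over 5% prevention, 20% prevention was higher for 2 of 35 genes and lower for 0, where 0.107% and 0.337% of all genes were (0.445% in either direction; 90 and 47 genes with library totals as scaling, in place of 21 and 66): Acot1 (1.11 ± 0.22, adjusted p = 0.0356) and Acot2 (0.92 ± 0.20, adjusted p = 0.0457). Ehhadh, with 1402 to 1976 against 754 to 1248 CPM, just missed (0.86 ± 0.19, adjusted p = 0.0507). Libraries lay wholly above for 9 members and wholly below for 5, against 9.64% and 9.01% of all genes tested. At an unadjusted p under 0.05, 4 members were lower, and the share of all genes at that threshold was not counted. DESeq2 called 5 members higher and 1 lower, and 272 and 396 of all genes. The 2 calls were fragile: edgeR called neither gene when any 5% prevention library, or replicate 1 or 2 of 20% prevention, was left out. Ehhadh was the 1 member called without 5% prevention replicate 2 (adjusted p = 0.025), and Acot2, Acot1, Ehhadh and Slc22a5 were the 4 called without 20% prevention replicate 3. Over the libraries left out, Acot2 had an adjusted p of up to 0.235 and Acot1 of up to 0.159, and with the replicate number as a block 0 passed.

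Over 5% therapy, 20% therapy was higher for 3 genes and lower for 6, where 8.33% and 9.33% of all genes were (17.7% in either direction). The count of rises was thus near the share of all genes. Acot2 was 52.8 to 66.1 CPM against 11.0 to 18.8 CPM (1.95 ± 0.20, adjusted p = 3.87e-06), a clear gap. Acot1 (0.81 ± 0.22, adjusted p = 0.0126) and Pdk4 (1.12 ± 0.36, adjusted p = 0.0355) were higher with less separation, since Pdk4 reached 55.1 CPM in 5% therapy replicate 2. The falls were Acaa2 (-0.54 ± 0.09, adjusted p = 0.00024), Acads (-0.49 ± 0.09, adjusted p = 0.00116), Hadh (-0.36 ± 0.10), Eci1 (-0.34 ± 0.10), Bdh1 (-0.37 ± 0.12, adjusted p = 0.035) and Acadm (-0.28 ± 0.09, adjusted p = 0.0363).

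Markers moved with this comparison too: 6 of 7 hepatocyte markers fell (4 of 7 with library totals as scaling; 60255 to 68111 against 85748 to 108294 CPM). All 6 dividing-cell markers (97.3 to 305 against 7.10 to 16.9 CPM), 5 of 6 cholangiocyte markers (166 to 752 against 89.5 to 134 CPM), 5 of 8 stellate cell markers (501 to 1031 against 342 to 562 CPM) and 2 of 3 tested neutrophil markers rose. With library totals as scaling, 6 of 6 cholangiocyte, 7 of 8 stellate cell, 3 of 3 neutrophil and 1 of 5 endothelial markers rose. The part of these cells in the members' values was not tested.

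The therapy dose calls that held without each library in edgeR's test were those of Acot2, Acaa2 and Acads. Acadm lost its call without any 1 library (adjusted p up to 0.106), Hadh without 5% therapy replicate 1 or 3 or 20% therapy replicate 1 or 2 (up to 0.0819), Eci1 without 5% therapy replicate 1 or 3 or 20% therapy replicate 1 (up to 0.147) and Bdh1 without 5% therapy replicate 1 or 2 or 20% therapy replicate 1 (up to 0.196). Pdk4 was lost without 5% therapy replicate 1 or 3 or 20% therapy replicate 2 or 3 (adjusted p up to 0.214; its log2 fold change ranged from 0.75 to 1.73) and Acot1 without 5% therapy replicate 1 or 20% therapy replicate 1 (up to 0.0758). The count of falls was 2 without 5% therapy replicate 1 or 20% therapy replicate 1 and 3 without 5% therapy replicate 3, and the count of rises was 1 without 5% therapy replicate 1. Scaling by library totals alone moved the median over all genes from 0.01 to 0.29, the members split 6 higher and 1 lower, and all genes 4730 and 897 in place of 1630 and 1825.

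The schedules at equal dose were also compared. At 5%, 0 of 35 members differed between therapy and prevention, where 0.194% of all genes did (0.0869% higher), and the nearest was Acot2 (-0.96 ± 0.20, adjusted p = 0.0573), the 1 member at an unadjusted p under 0.05. DESeq2 called Acot2 lower (adjusted p = 0.00169), and so did edgeR without 5% therapy replicate 2 (0.0212). Over all genes DESeq2 called 179 higher and 178 lower. Scaling by library totals gave 8 genes higher and 26 lower in place of 17 and 21. At 20%, 0 of 35 passed in either direction, where 0.0255% of all genes were higher and 0.0562% lower (0.0818% in all), but 20 members had all 3 therapy libraries below all 3 prevention libraries and 0 had them above, against 8.69% and 8.45% of all genes tested. Of the 35, 32 had a negative log2 fold change, the median was -0.26 against 0.00 over all genes, and 19 were lower at an unadjusted p under 0.05 with 0 higher. The share of all genes at that unadjusted threshold was not counted. DESeq2 called 3 members lower and 0 higher, and 164 genes higher and 234 lower over all 19571 tested. Library totals as the only scaling gave the following: 161 genes were higher and 22 lower, in place of 5 and 11, and 1 member was lower.

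The peroxisomal or microsomal genes carried the largest of these differences. Ehhadh was at 838 to 1037 CPM in 20% therapy against 1402 to 1976 CPM in 20% prevention (-0.91 ± 0.19, adjusted p = 0.0685). Cyp4a10 was at 226 to 277 against 475 to 551 CPM (-0.98 ± 0.23, adjusted p = 0.0783), and Cyp4a14 at 608 to 1000 against 1420 to 1902 CPM (-1.02 ± 0.36, adjusted p = 0.236). None of these 3 genes' groups overlapped, but none passed over all genes. Ppara (-0.72 ± 0.24, adjusted p = 0.194) and Slc22a5 (-0.60 ± 0.15, adjusted p = 0.105) lay in the same direction. So did the 17 other peroxisomal oxidation genes (median -0.31, 0 positive, 0 called). Hepatocyte markers summed to 60255 to 68111 CPM in 20% therapy against 73096 to 90558 CPM in 20% prevention (median -0.25, 2 of 7 positive, 0 called). Dividing-cell markers summed to 97.3 to 305 against 66.7 to 80.2 CPM (0 of 6 called). The part of these cells in the members' values was not tested.

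On normal chow, no member passed with mannose at either dose. With 20% for 12 weeks 0 of 35 passed, where 0.00542% of all genes did, and with 5% 0 of 35 passed, where 0 genes of 18462 did (0%). Of the members, Cyp4a14 had the smallest adjusted p at 20%. Its libraries were at 94.1 and 116 CPM without mannose, 26.0 and 39.3 CPM with 5%, and 23.4, 45.4 and 32.8 CPM with 20%. Every mannose library was below both libraries without mannose, with differences of -1.69 ± 0.28 at 5% (adjusted p = 0.381) and -1.63 ± 0.24 at 20% (adjusted p = 0.074) that did not pass edgeR's test. Libraries lay wholly below for 5 members at 5% and 2 at 20%, against 18.3% and 11.2% of all genes tested, and wholly above for 4 at each dose, against 16.4% and 10.5%. The 3 normal-chow libraries of batch 1, scaled apart, were at 39.3 to 67.0 CPM for Cyp4a14, below both controls of batch 2 and reaching into the mannose range. DESeq2 called 1 member lower at each dose, and Cyp4a14 was that member (adjusted p = 1.24e-06 at 5% and 4.14e-08 at 20%). Over all 18462 genes DESeq2 called 42 at 5% and 69 at 20%. Both mannose groups were compared with the same 2 libraries, so the 2 differences are not independent.

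Other members on normal chow stayed close. At an unadjusted p under 0.05, 2 members were lower with 5% (Cyp4a14 and Crat). With 20%, 2 were lower (Cyp4a14 and Ehhadh) and 2 higher (Acot2 and Mgll). The share of all genes at that threshold was not counted. Ehhadh was at 304 and 333 CPM without mannose, 271 and 263 CPM with 5%, and 224, 271 and 225 CPM with 20% (-0.41 ± 0.11 at 20%, adjusted p = 0.615), in the opposite direction to its rise on the regimen. Acot2 was at 3.23 and 3.64 CPM without mannose and 5.82, 5.24 and 5.28 CPM with 20% (0.66 ± 0.24, adjusted p = 0.808). Vnn1 differed between the 2 libraries without mannose (12.3 and 46.6 CPM) by more than between the groups. Adipocyte markers summed to 59.6 to 96.2 CPM with 20%, 1.70 to 2.34 CPM with 5%, and 1.28 and 54.7 CPM without mannose, and their part in the values was not tested. Leaving out a normal-chow library without mannose leaves that group with 1 library, assumed to vary like the others. Without replicate 5, edgeR called Vnn1 and Pex11a higher and Cyp4a14 lower at 5% (adjusted p = 0.0046, 0.0481 and 0.0323) and Vnn1 higher and Cyp4a14 lower at 20% (0.000737 and 0.0213). Without replicate 4 it called Cyp4a14 lower at 20% (0.0189).

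The effect of 20% mannose for 12 weeks was then compared between the diets. The difference of the effects was positive for 7 members and negative for 3, where 2.26% and 3.41% of 21373 genes were called (5.67% in either direction). Cyp4a14 differed most: 20% mannose was accompanied by 1.94 ± 0.37 on the regimen and -1.63 ± 0.24 on normal chow, a difference of 3.58 ± 0.53 (adjusted p = 0.000433). Ehhadh differed in the same way (1.64 ± 0.26, adjusted p = 0.000691), as did Acot1 (1.495 ± 0.30, adjusted p = 0.00473), Acot2 (1.24 ± 0.29, adjusted p = 0.0128), Acot4 (1.08 ± 0.27, adjusted p = 0.0177), Acot3 (1.92 ± 0.56, adjusted p = 0.0447) and Crat (0.82 ± 0.23, adjusted p = 0.0361). Acaa2 (-0.55 ± 0.13, adjusted p = 0.0122), Acads (-0.57 ± 0.14, adjusted p = 0.019) and Bdh1 (-0.64 ± 0.18, adjusted p = 0.0358) had the more negative effect on the regimen. Cpt1a (-0.07 ± 0.19), Acadm (-0.31 ± 0.16), Cyp4a10 (0.52 ± 0.43), Pdk4 (1.39 ± 0.51, adjusted p = 0.115), Vnn1 (-0.58 ± 0.50), Fabp1 (-0.72 ± 0.30), Ppara (-0.19 ± 0.31) and Creb3l3 (-0.15 ± 0.16) did not pass.

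The regimen arm of this comparison is all in the first batch and the normal-chow arm in the second, so each effect was taken within its batch. The value for Cyp4a14 rests on the 2 batch 2 controls, which were above the normal-chow libraries of batch 1. Cyp4a14, Ehhadh, Acot1 and Acot2 kept their calls without each of the 11 libraries. Without normal-chow replicate 4, 4 differences were positive and 0 negative by edgeR; Acads, Acaa2, Bdh1, Crat, Acot3 and Acot4 lost their calls there (adjusted p of up to 0.112, 0.0845, 0.218, 0.136, 0.111 and 0.0509 over the libraries left out). Without normal-chow replicate 5, 6 were negative, and without FAT-MASH replicate 2, 1 was. Acads was also lost without FAT-MASH replicate 2; Bdh1 also without replicate 2 or 3 of FAT-MASH, replicate 1 or 2 of 20% prevention or replicate 2 or 3 of normal chow with 20%; Crat also without replicate 1 or 3 of FAT-MASH, replicate 1 or 2 of 20% prevention or replicate 1 or 3 of normal chow with 20%; and Acot3 without any library but FAT-MASH replicate 1 and 20% prevention replicate 3. Scaling by library totals alone moved the median over all genes from -0.00 to 0.23, 8 members were positive and 0 negative, and all genes split 1425 and 375 in place of 483 and 728. Of the markers, 4 of 6 for dividing cells and 1 of 3 tested for neutrophils had a positive difference that passed. For 2 of 7 hepatocyte markers and the 1 tested pancreas marker it was negative. Adipocyte markers had a median of -5.12, with 0 of 4 called. Their part in the members' differences was not tested.

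**Figure D4:**
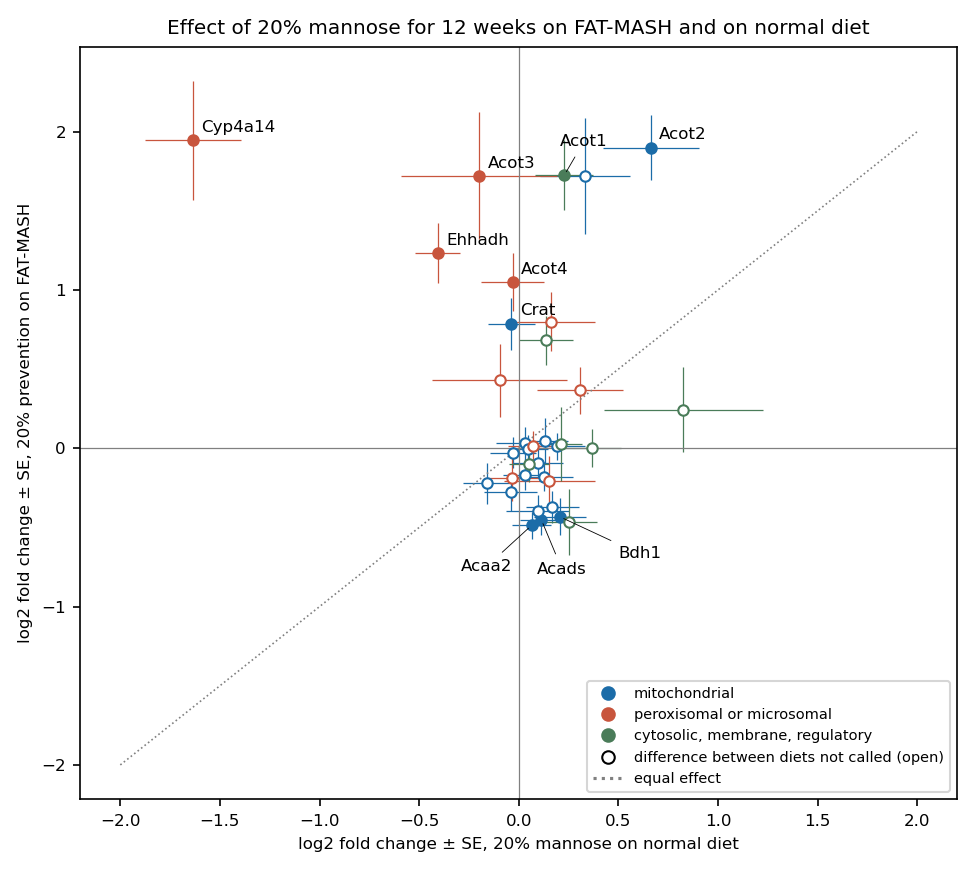
Log2 fold change ± SE of each of the 35 genes for 20% mannose over 12 weeks on normal chow (horizontal axis) and on FAT-MASH (vertical axis); filled and named points are the 10 genes whose effects differed between the diets at an adjusted p under 0.05, colours give the arm and the dotted line marks equal effects. Cyp4a14 lies at -1.63 on normal chow and 1.94 on the regimen, and most other points lie near 0 on the horizontal axis.

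Genes of the same pathways outside the set were counted from lists that do not overlap it. On the regimen, 5 of 17 other peroxisomal oxidation genes rose and 0 fell (median 0.08), where 7.81% of all genes rose and 5.92% fell, 3 of 6 other ketogenesis genes rose and 1 fell, 2 of 14 other mitochondrial genes rose and 1 fell, and 5 of 16 tested PPAR alpha targets rose and 2 fell. Of the 17 other peroxisomal genes, 1 was lower at an unadjusted p under 0.05. Fgf21, the hepatic hormone induced by PPAR alpha, rose from 0.507 ± 0.448 to 13.1 ± 9.29 CPM (SD, n = 3; log2 4.66 ± 0.68, adjusted p = 0.000115). Ppargc1a, a coactivator of PPAR alpha, rose by 0.81 ± 0.25 (adjusted p = 0.0346), and Plin2, a lipid droplet coat protein, did not pass (0.28 ± 0.19, adjusted p = 0.389).

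With 20% mannose more genes fell than rose in the 3 lists of oxidation and ketogenesis enzymes, and more rose than fell among the other targets. In 20% prevention 8 of 17 other peroxisomal, 8 of 14 other mitochondrial and 4 of 6 other ketogenesis genes fell, where 8.26% of all genes did, and in 20% therapy 15, 9 and 4, where 11.3% did; with library totals as scaling these counts were 6, 5 and 3, and 9, 7 and 4. Pecr, a peroxisomal enoyl-CoA reductase (-1.01 ± 0.13 and -1.39 ± 0.13), and Phyh, the phytanoyl-CoA hydroxylase (-0.72 ± 0.12 and -1.02 ± 0.12), fell in both 20% groups.

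Of the 16 other PPAR alpha targets tested, 5 rose in each 20% group, 0 fell in 20% prevention and 2 fell in 20% therapy (8 and 9 rose with library totals, 0 fell). Those higher in both were Fgf21 (1.83 ± 0.49 and 2.08 ± 0.50), Plin2 (0.84 ± 0.19 and 0.95 ± 0.19), and the lipid droplet genes Cidec (2.55 ± 0.50 and 3.08 ± 0.51) and Hilpda (0.99 ± 0.22 and 1.62 ± 0.22). Among 18 regulators, Ppargc1a fell in both groups (-0.80 ± 0.25, adjusted p = 0.0312, and -1.26 ± 0.25, adjusted p = 0.000977) but not in 20% prevention with library totals (-0.61, adjusted p = 0.104). Pparg, the PPAR of adipocytes, rose from 12.4 ± 1.98 CPM in FAT-MASH to 28.4 ± 2.26 and 24.1 ± 1.13 CPM (1.19 ± 0.22 and 0.96 ± 0.22). Both 20% groups were compared with the same FAT-MASH libraries, so these pairs of values share their controls.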

How the data were processed

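Liver RNA-seq of 25 mice was used as gene counts, deposited as whole numbers in 1 table. Per the submitters' processing notes, reads were aligned with STAR to GRCm39 and counted with featureCounts 2.0.6; per the file header, the version was 2.0.1 with GENCODE M31 genes, without strand and without multi-mapped reads. Antisense partners and near-identical copies are therefore uncertain.

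Groups follow the labels. Counts were tested with edgeR 4.0.16 (R 4.3.3; TMM, filterByExpr, quasi-likelihood test, Benjamini-Hochberg over all genes, threshold 0.05), with all 18 libraries of the first batch in 1 fit (19571 genes), the 7 of the second in another (18462), and all 25, batch included as a term, for the difference between diets (21373). Alternatives were DESeq2 1.42.0, other scalings and filters, other sets of libraries, a replicate block, and each library left out. The script was tested on simulated data. Members and gene lists were chosen with earlier results of these data known. Named genes were 12 fixed members and, per comparison, up to 4 others with the smallest p in each direction. Of the other pathway genes, those with the smallest p and 5 fixed genes were eligible. Some of these genes are not reported here. Totals per library ran from 31298299 to 56010646 counts. Replicates differed by more than sampling noise (chi-square per degree of freedom at least 21.2). Promoters were taken from RefSeq (GRCm38.p6), without conversion between builds.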

Additional observations from a re-analysis of the deposited data

Results flagged for a closer look

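Hadhb stood apart in 1 normal-chow library: among the 5 libraries on normal chow without mannose, scaled together, replicate 3 was at 55.47 CPM, the nearest at 40.47 CPM and the lowest at 39.66 CPM. The gap took 0.949 of the range, above Dixon's critical value of 0.71. It was 1 of 35 members tested in this way, and chance gives about 1 such gap in 20 groups.

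For 10 members the effect of 20% mannose over 12 weeks differed between FAT-MASH and normal chow by the interaction test in edgeR. The difference (log2, FAT-MASH minus normal chow) was 3.58 for Cyp4a14, 1.92 for Acot3, 1.64 for Ehhadh, 1.495 for Acot1, 1.24 for Acot2, 1.08 for Acot4 and 0.82 for Crat. It was -0.64 for Bdh1, -0.57 for Acads and -0.55 for Acaa2. The effect on FAT-MASH was taken within batch 1 and that on normal chow within batch 2; the value for Cyp4a14 rests on 2 controls at 94.1 and 116 CPM, while the 3 normal-chow libraries of batch 1 were at 39.3 to 67.0 CPM.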

How the results depend on the processing

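Over all members, comparisons and alternatives, 5094 values kept their side of the threshold, 177 lost a call, 116 gained one, and 3 called values turned. Sign changes where neither value passed are among the 5094. With library totals as scaling, 3 values turned: Cpt2 (0.0084) and Hsd17b4 (0.025) in 20% therapy against FAT-MASH and Decr1 (0.27) in 20% against 5% therapy. That scaling gave 2 members higher in 5% prevention, 2 lower in 20% prevention, 10 higher and 3 lower in 20% therapy, 4 higher for 20% over 5% prevention, 6 higher and 1 lower for 20% over 5% therapy, 1 lower for therapy against prevention at 20%, and 0 negative differences between diets.

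DESeq2 called 2 members higher and 1 lower in 5% prevention, and 5 higher and 1 lower for 20% over 5% prevention. It called 1 and 3 lower for therapy against prevention at 5% and 20%, and 1 lower at each dose on normal chow. Over all genes, DESeq2 called 943, 668, 357, 398, 42 and 69 in these comparisons, in that order. By edgeR these totals were 445, 87, 38, 16, 0 and 1. Without a filter on low counts, 1 member was lower in FAT-MASH, 7 higher in 5% prevention, 3 higher in 5% therapy, 8 higher in 20% therapy, 9 higher for 20% over 5% prevention, 2 and 11 lower for therapy against prevention at 5% and 20%, 2 lower with 5% and 1 higher and 1 lower with 20% on normal chow, and 5 negative between diets. With only the groups compared, 1 was lower in FAT-MASH, 3 higher in 5% prevention, 1 higher for 20% over 5% prevention and 3 lower for 20% over 5% therapy. With all 25 libraries and a batch term, 1 was lower for therapy against prevention at 5% and 1 at 20%.

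Leaving out 1 library gave 13 to 16 higher and 0 to 1 lower in FAT-MASH, 0 to 1 higher in 5% prevention, 10 to 11 higher and 2 to 5 lower in 20% prevention, 3 to 5 higher and 8 to 12 lower in 20% therapy, 0 to 4 higher for 20% over 5% prevention, 1 to 4 higher and 2 to 6 lower for 20% over 5% therapy, 0 to 1 lower for therapy against prevention at 5%, 0 to 2 higher and 0 to 1 lower with 5% on normal chow, 0 to 1 higher and 0 to 1 lower with 20%, and 4 to 8 positive and 0 to 6 negative between diets.

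Same-numbered samples of batch 1 deviated together about as little as others (r from -0.162 to 0.179, median -0.0168, 45 pairs). For other-numbered samples r ran from -0.216 to 0.155 (median 0.00451, 90 pairs). The numbers thus marked no visible shared shift, but this cannot show whether the animals were matched. With the replicate block, 15 members were higher in FAT-MASH, 4 higher and 12 lower in 20% therapy, 0 higher for 20% over 5% prevention, and 3 higher and 5 lower for 20% over 5% therapy. No paired analysis was run for mannose on normal chow and for the difference between diets, because those groups share too few replicate numbers. The alignment names of batch 2 do repeat some numbers across its groups, and pairing by them was not tested. The members' summed CPM was lowest in replicate 4 without mannose (7809 against 9976). At 5% and 20% it was lowest in replicate 1 (8687 against 10311, and 8889 against 9460 and 10454). These lowest libraries share an alignment number. Depth limited Acot3 most, with 28 counts in 1 library.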

Other observations

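Among other pathway genes with the smallest p in their lists, directions differed. Slc27a2, a very-long-chain acyl-CoA synthetase, rose on the regimen (0.68 ± 0.10) and was lower in 20% prevention (-0.58 ± 0.10) and 20% therapy (-1.04 ± 0.10). Pcca, a subunit of propionyl-CoA carboxylase, fell in both 20% groups (-0.70 ± 0.11 and -0.97 ± 0.11), as did Sirt3, the mitochondrial deacetylase (-0.62 ± 0.12 and -0.98 ± 0.12). Slc16a1, a monocarboxylate carrier that exports ketone bodies, rose on the regimen (0.54 ± 0.11) and again in 20% prevention (0.61 ± 0.11) and 20% therapy (0.78 ± 0.11). Both 20% groups share their FAT-MASH libraries.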
